A study of Homo sapiens with 6 samples.

Results

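Transcripts of 10 genes that encode the LMO2 transcription factor complex were followed in MOLM-14, a human cell line long established from acute myeloid leukaemia that carries the MLL-AF9 fusion. The genes are the LIM-only adaptors LMO2 and LMO4, the basic helix-loop-helix factors TAL1 and LYL1, the scaffold LDB1, the zinc finger factors GATA1 and GATA2, and the E proteins TCF3, TCF4 and TCF12. The genes were chosen for their known roles in the complex, with earlier results of these data known, and every probe set that the platform annotation assigns to one of them was taken, which gave 45 of the 54613 probe sets tested. All 10 genes had at least 1 probe set, none of the 45 listed a further gene, and no filter on low values was applied.

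The control group was MOLM-14 kept for 3 h with the solvent dimethyl sulfoxide (DMSO), and the treated group was MOLM-14 kept for 3 h with 25 nM cortistatin A (CA), an inhibitor of the Mediator kinases CDK8 and CDK19. Each group had 3 samples and each sample 1 Affymetrix U133 Plus 2.0 array. Both groups are the same cell line, and the labels speak of triplicate wells without naming separate cultures. The p-values therefore cover only the variation among these 6 samples, part or all of which may be technical. The labels name 2 kinds of RNA isolation reagent without saying which sample had which, so whether the reagent differed between the groups is not known here and its part in the changes was not tested. RNA per well and RNA per cell cannot be told apart in such bulk samples.

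LMO2 and LMO4 hold no DNA-binding domain of their own. In blood progenitors LMO2 joins LDB1 to a pair of DNA-bound partners, a dimer of TAL1 or LYL1 with an E protein at an E-box and a GATA factor at a GATA site. The complex is known for its part in blood stem cell and red cell formation, and LMO2, TAL1 and LYL1 are known as oncogenes in T-cell leukaemia. LMO4 competes for LDB1 in several tissues.

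Of these genes LMO2 alone passed the test, with 1.43-fold more signal in CA than in DMSO at its brighter probe set, 204249_s_at. LMO4, GATA2 and TCF4 each had several probe sets on which all CA arrays lay above all DMSO arrays, with log2 changes of 0.12 to 0.40, but none of these passed after adjustment. At both probe sets of LDB1 the CA arrays lay below the DMSO arrays, with log2 changes of -0.10 and -0.15 that did not pass either. Of the 4 TCF12 probe sets, 1 lay lower in all CA arrays, with -0.30. For TAL1, LYL1, GATA1 and TCF3 no probe set gave a 95% confidence interval that excluded 0.

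Over all probe sets, 116 rose and 4 fell in limma, with p-values adjusted by Benjamini-Hochberg and a threshold of 0.05. The share called higher was 0.212% and the share called lower 0.00732%. Of the 45 probe sets of the complex, 1 was called higher and 0 lower. Before adjustment, 10 of the 45 (22.2%) had a limma p under 0.05 with a positive change and 2 (4.44%) with a negative one, where the background was 4.91% and 3.71%. With any 1 array left out these counts were 9 to 12 and 0 to 2. The 3 CA values lay above the 3 DMSO values at 12 of the 45 probe sets (26.7%) and below them at 3 (6.67%), where the background over all probe sets was 8.96% and 6.55%. Probe sets of one gene read the same transcripts in the same samples, so these counts are not counts of independent measurements: the 12 come from LMO2 with 2, LMO4 with 4, TCF4 with 3, GATA2 with 2 and LYL1 with 1. The median log2 change of the 45 was 0.04, against -0.0011 over all probe sets. Only 8 of the 45 had means below the median of all probe sets, so the background holds a larger share of dim probe sets. The shares were not compared with probe sets of like signal.

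**Figure D1:**
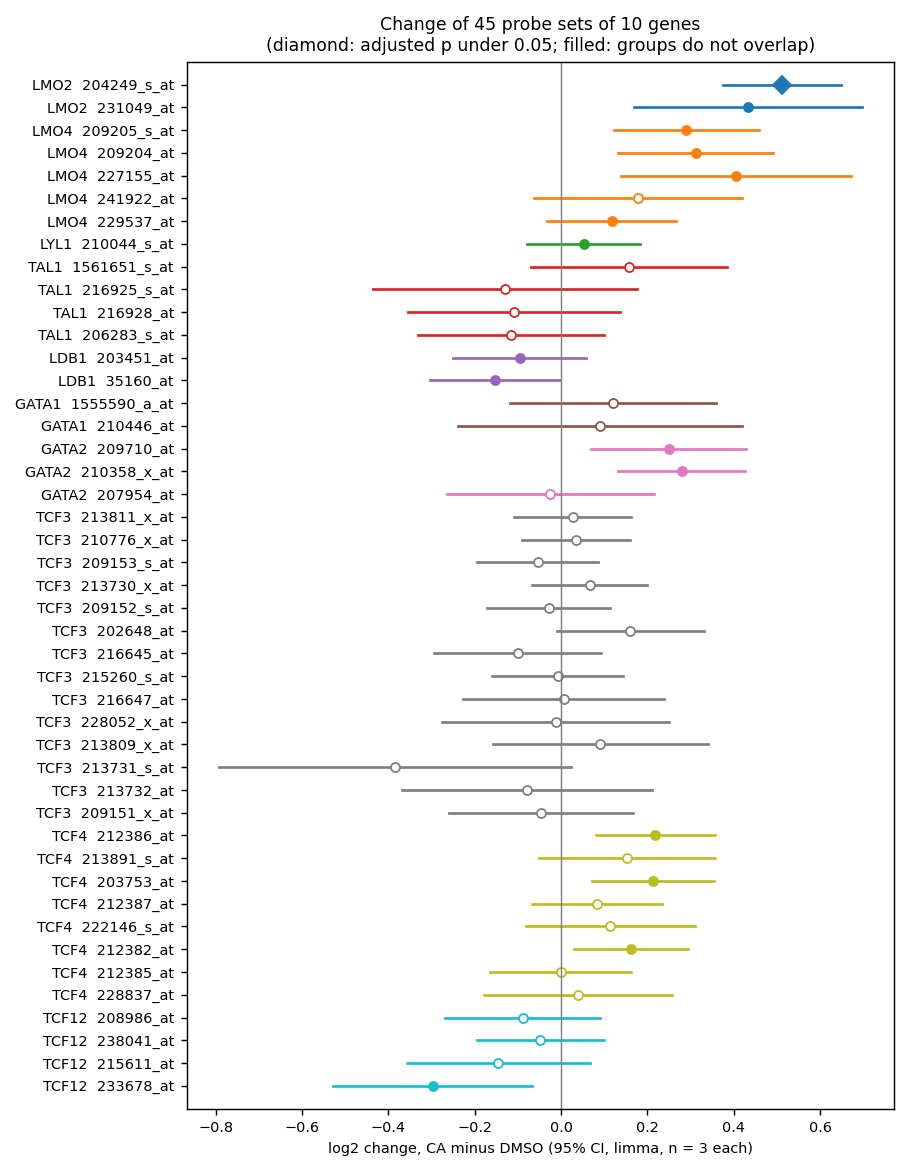
Log2 change (CA minus DMSO, horizontal axis) of each of the 45 probe sets, grouped by gene with the brightest probe set of each gene first. Lines are 95% confidence intervals from limma with 3 arrays a group, the diamond marks the probe set with an adjusted p under 0.05, and filled points mark groups that do not overlap. LMO2 lies farthest to the right, at 0.51 and 0.43.

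CA replicate 3 differed most from the other arrays: it lay at 33.8 on the first principal component (31.6% of the variance), where they lay between -12.8 and 6.44. The difference between the 3′ and the 5′ control probe sets of ACTB, a measure that moves with RNA integrity and labelling, was 3.01 log2 units on that array and 3.20 to 3.28 on the others, while that of GAPDH was 0.93 there and 0.91 to 0.98 on the others. Correlations between arrays lay between 0.996 and 0.998, and array medians between 5.03 and 5.08 log2 units. For the values below that rest most on this array, the value without it is given too.

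Of 8 measured myeloid markers, 7 were above the median of all probe sets, which was 5.05. LYZ and FLT3 were the highest, with means of 12.37 and 10.34 over the 6 arrays, and SPI1, with 5.43, was only just above it. The monocyte receptor CD14 was below it, at a mean log2 value of 3.80 in DMSO. Of the markers of other lineages, 5 of 8 early B and T cell genes lay below that median, as did 3 of 12 red cell and platelet genes. So did 3 of 5 mast cell and basophil genes and 2 of 7 plasmacytoid dendritic cell genes. Most red cell and platelet genes thus lay above the median too. The B cell gene PAX5 had a mean of 9.56 at its brightest probe set, 221969_at, but of 5.32 at its other one, 206802_at. A place above the median therefore does not mark a lineage here. No marker passed the limma test over all probe sets.

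Promoter windows show which recognition letters of the complex lie near the starts of its own genes. RefSeq (GRCh38.p14) windows of 300 bases, from 250 before to 50 after a start, were found for 25 starts of 9 of the 10 genes, all but LMO2. The windows of LMO4 and GATA2 are printed as examples of genes with several probe sets that were higher with CA. Those of TCF4, another such gene, are not printed. For each printed gene the window with the most matches was taken, or the first of equals. The windows of TAL1 and LYL1 are printed because they hold 2 GATA matches each, the most of the 25. Capitals mark the E-box CANNTG and the GATA motif GATAA, read on both strands, so that TTATC is GATAA on the other strand.
LMO4, chr1:87328630-87328929, plus strand: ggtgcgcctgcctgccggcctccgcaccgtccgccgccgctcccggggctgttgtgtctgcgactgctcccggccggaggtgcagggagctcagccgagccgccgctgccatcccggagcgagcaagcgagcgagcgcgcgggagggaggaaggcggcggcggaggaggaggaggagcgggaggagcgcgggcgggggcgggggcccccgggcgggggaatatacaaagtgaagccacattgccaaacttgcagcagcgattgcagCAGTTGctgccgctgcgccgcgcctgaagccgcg
GATA2, chr3:128488481-128488780, minus strand: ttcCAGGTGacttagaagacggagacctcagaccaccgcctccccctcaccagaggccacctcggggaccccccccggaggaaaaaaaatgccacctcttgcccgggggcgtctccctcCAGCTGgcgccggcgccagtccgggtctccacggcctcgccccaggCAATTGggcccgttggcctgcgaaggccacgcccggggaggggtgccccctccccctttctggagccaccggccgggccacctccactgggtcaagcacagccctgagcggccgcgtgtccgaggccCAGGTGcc
TAL1, chr1:47232286-47232585, minus strand: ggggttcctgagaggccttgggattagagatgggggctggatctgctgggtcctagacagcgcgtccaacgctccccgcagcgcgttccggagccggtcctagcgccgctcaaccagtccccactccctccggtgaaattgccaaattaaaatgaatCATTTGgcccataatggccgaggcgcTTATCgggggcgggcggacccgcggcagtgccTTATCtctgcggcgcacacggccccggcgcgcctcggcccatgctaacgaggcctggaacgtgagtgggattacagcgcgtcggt
LYL1, chr19:13102809-13103108, minus strand: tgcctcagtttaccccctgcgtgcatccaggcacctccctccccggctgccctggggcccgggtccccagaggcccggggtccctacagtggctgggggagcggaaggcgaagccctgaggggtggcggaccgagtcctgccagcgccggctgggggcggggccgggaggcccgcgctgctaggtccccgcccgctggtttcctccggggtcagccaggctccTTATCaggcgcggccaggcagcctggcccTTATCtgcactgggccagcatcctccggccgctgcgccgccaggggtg

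The GATA2 window held 4 E-box matches and no GATAA, and the LMO4 window held 1 E-box match and no GATAA. The other GATA2 window held neither motif, and the other LMO4 window held 1 E-box match. TAL1 had 2 GATAA matches and 1 E-box match in the window shown and neither in its other window, and LYL1 had 2 GATAA matches and no E-box. Over all 25 windows, 13 held CANNTG and 4 held GATAA. The 4 were the windows of TAL1 and LYL1 shown and 2 of 10 windows of TCF4, with 1 match each, so GATAA was found at genes with and without probe sets that lay higher in CA. Among 35116 RefSeq windows of the same length, 68.7% held CANNTG and 22.7% held GATAA. An E-box followed after 8 to 10 bases by GATA, a layout that the complex is known to bind, was in none of the 25 windows and in 1.18% of all windows. A match is only a run of letters, and the windows leave out the distal enhancers of these genes.

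LMO2, the bridge of the complex, was measured by 2 probe sets. At 204249_s_at the log2 values were 10.76, 10.71 and 10.68 in the DMSO arrays and 11.26, 11.26 and 11.17 in the CA arrays. All CA values lay above all DMSO values, with a gap of 0.41 between the groups, and the values of each group lay close together. The mean was 10.72 ± 0.04 in DMSO and 11.23 ± 0.05 in CA (SD, n = 3 each), which is a log2 change of 0.51 (95% confidence interval 0.38 to 0.65) or 1.43-fold (1.30 to 1.57, limma adjusted p = 0.0340). The call rested on all 6 arrays: leaving out any 1 array kept the log2 change between 0.50 and 0.54 and gave adjusted p-values between 0.0684, without CA replicate 3, and 0.223, without DMSO replicate 3, and with the replicate number as a block the adjusted p was 0.138.

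The second LMO2 probe set, 231049_at, gave a change of similar size with more spread. Its log2 values were 5.95, 5.88 and 5.66 in DMSO and 6.43, 6.29 and 6.08 in CA. The groups did not overlap, and replicate 3 was the lowest array of both groups. The log2 change was 0.43 (0.17 to 0.70), or 1.35-fold, with an adjusted p of 0.325 in limma. Without CA replicate 3 it was 0.53. The 2 probe sets thus differed by 0.08 in log2 change, which is within the interval of either.

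LMO4, the second LIM-only gene, was measured by 5 probe sets, and all 5 had positive changes. At the brightest, 209205_s_at, the log2 values were 10.64, 10.64 and 10.61 in DMSO and 11.04, 10.91 and 10.82 in CA. The DMSO arrays agreed within 0.03 while the CA arrays were spread, with replicate 3 lowest and still above all DMSO arrays. The log2 change was 0.29 (0.12 to 0.46), or 1.22-fold, with an adjusted p of 0.294 in limma.

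At 209204_at the LMO4 values were 8.89, 8.81 and 8.84 in DMSO and 9.30, 9.08 and 9.09 in CA. CA replicate 1 was the highest there, and the log2 change was 0.31 (0.13 to 0.49, adjusted p = 0.290). At 227155_at the values were 6.16, 6.16 and 5.88 in DMSO and 6.58, 6.56 and 6.28 in CA, so that replicate 3 was again the lowest of both groups. The log2 change at 227155_at was 0.40 (0.14 to 0.67, adjusted p = 0.373). The dimmer 241922_at, whose groups overlapped because CA replicate 2 lay at 5.66, and 229537_at, whose groups did not, had log2 changes of 0.18 and 0.12 with intervals that included 0. With a robust limma fit that lets the variance follow the signal, 209205_s_at and 209204_at passed at adjusted p = 0.0109 and 0.0244. In the other settings no LMO4 probe set did. Without CA replicate 3 the changes at the 3 brightest LMO4 probe sets were 0.34, 0.34 and 0.50.

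**Figure D2:**
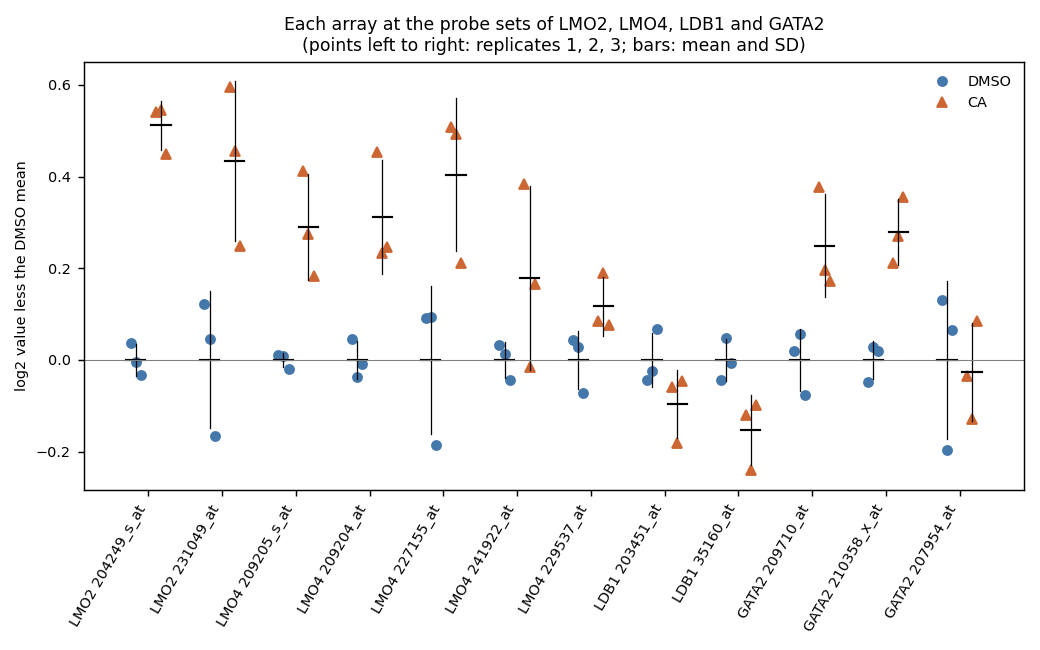
Log2 value of each array less the DMSO mean of its probe set (vertical axis) for LMO2, LMO4, LDB1 and GATA2. Circles are DMSO and triangles CA, replicates 1 to 3 run from left to right, and bars give the mean and SD of 3 arrays. The CA arrays lie above the DMSO arrays at both LMO2 probe sets, at all LMO4 probe sets but 241922_at and at 2 of 3 GATA2 probe sets, and below them at both LDB1 probe sets.

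LDB1, the scaffold that both LIM-only proteins bind, had the opposite sign. At 35160_at the log2 values were 7.04, 7.13 and 7.08 in DMSO and 6.96, 6.84 and 6.99 in CA. All CA values lay below the DMSO values, with CA replicate 2 the lowest. The log2 change was -0.15, or 0.900-fold (0.810 to 0.998), with an adjusted p of 0.575 in limma. At 203451_at the values were 7.16, 7.18 and 7.27 in DMSO and 7.14, 7.02 and 7.16 in CA, and the groups were separated by no more than 0.0037. The change there was -0.10 (-0.25 to 0.06, adjusted p = 0.726). Without CA replicate 3 the 2 changes were -0.18 and -0.12, so neither sign rested on that array.

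The helix-loop-helix partners of LMO2 showed less. LYL1 had 1 probe set, 210044_s_at, with log2 values of 9.28, 9.22 and 9.29 in DMSO and 9.29, 9.29 and 9.36 in CA. The groups did not overlap, but the gap was 0.0019, far below the SD of 0.04 in each group. The change was 0.05 (-0.08 to 0.18, adjusted p = 0.822 in limma), so that increases of up to 1.14-fold lie within the interval, and without CA replicate 3 it was 0.03. Thus the interval of LYL1 ends below the lower bound of 1.30-fold for LMO2 at 204249_s_at.

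TAL1 had 4 probe sets, and their signs were mixed. The brightest, 1561651_s_at, had log2 values of 5.76, 5.94 and 6.02 in DMSO and 5.90, 6.14 and 6.15 in CA, with overlapping groups and a change of 0.16 (-0.07 to 0.38, adjusted p = 0.698). The other 3, 216925_s_at, 216928_at and 206283_s_at, had changes of -0.13, -0.11 and -0.12, each with overlapping groups and an interval that included 0. Without CA replicate 3 these were -0.24, -0.19 and -0.07, and without CA replicate 2 the first and second were -0.0069 and -0.01. For 206283_s_at the change was -0.21 without DMSO replicate 1 and -0.07 without DMSO replicate 2. Among these, 216928_at and 206283_s_at had means below the median of all probe sets, with 4.14 and 2.65 in DMSO. The array thus gave no common direction for TAL1, and the widest of its intervals, at 216925_s_at, ran from -0.44 to 0.18.

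Of the GATA factors, GATA2 is the one active in stem cells, progenitors and mast cells, and GATA1 drives the red cell and platelet lines. GATA2 at 209710_at had log2 values of 7.26, 7.29 and 7.16 in DMSO and 7.61, 7.43 and 7.41 in CA. At 210358_x_at they were 5.929, 6.005 and 5.996 in DMSO and 6.19, 6.25 and 6.33 in CA. The groups did not overlap at either, and the array that was highest at the first, CA replicate 1, was the lowest of the CA arrays at the second.

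The changes at these GATA2 probe sets were 0.25 (0.07 to 0.43, adjusted p = 0.423) and 0.28 (0.13 to 0.43, adjusted p = 0.242) in limma, and 0.29 and 0.24 without CA replicate 3. The third GATA2 probe set, 207954_at, did not share them: its log2 values were 6.09, 5.76 and 6.02 in DMSO and 5.92, 5.83 and 6.04 in CA. The groups overlapped fully there, with a change of -0.03 (-0.27 to 0.21) whose upper bound lies below the changes at the other probe sets. GATA1 had changes of 0.12 at 1555590_a_at and 0.09 at 210446_at, both with overlapping groups. CA replicate 3 was the highest array at the first of these, with 6.05 against 5.65 to 5.81 in DMSO, and without it the changes were 0.01 and 0.03. The change at 210446_at was 0.24 without CA replicate 2.

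The E proteins, which pair with TAL1 or LYL1 on DNA, had no common sign. None of their probe sets passed, and a difference between these genes was not tested. TCF4, which is needed for plasmacytoid dendritic cells, had positive changes at 7 of 8 probe sets. At its brightest, 212386_at, the log2 values were 8.14, 8.20 and 8.10 in DMSO and 8.40, 8.32 and 8.38 in CA. The groups did not overlap, and the change was 0.22 (0.08 to 0.36), or 1.16-fold, with an adjusted p of 0.341 in limma.

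At 203753_at the TCF4 values were 7.26, 7.32 and 7.27 in DMSO and 7.55, 7.50 and 7.42 in CA, a change of 0.21 (0.07 to 0.35, adjusted p = 0.375). At 212382_at they were 6.04, 5.97 and 6.07 in DMSO and 6.19, 6.20 and 6.16 in CA, a change of 0.16 (0.03 to 0.29, adjusted p = 0.497). These groups did not overlap either. At 213891_s_at only CA replicate 3, at 7.52, lay among the DMSO values, and the change was 0.15 with it and 0.23 without it. The remaining 4 probe sets of TCF4 had changes between -0.0012 and 0.11, and 228837_at was below the median of all probe sets.

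TCF12 had negative changes at all 4 of its probe sets. At the brightest, 208986_at, the log2 values were 10.16, 10.26 and 10.14 in DMSO and 10.16, 10.17 and 9.97 in CA, and the groups overlapped except for CA replicate 3. The change was -0.09 (-0.27 to 0.09) with that array and -0.02 without it. At 233678_at, which was dim, the values were 4.35, 4.39 and 4.12 in DMSO and 4.06, 4.06 and 3.84 in CA, with no overlap and a change of -0.30 (-0.53 to -0.07, adjusted p = 0.471 in limma). CA replicate 3 was the lowest array at all 4 TCF12 probe sets, and without it the changes lay between -0.22 and -0.0046.

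**Figure D3:**
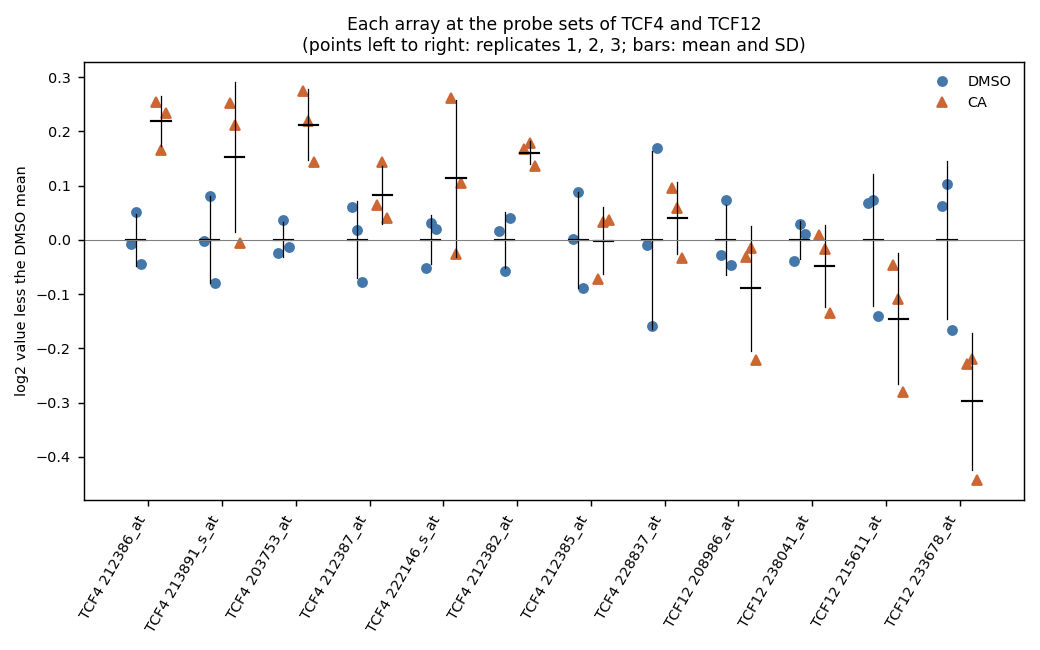
Log2 value of each array less the DMSO mean of its probe set (vertical axis) for the E protein genes TCF4 and TCF12. Circles are DMSO and triangles CA, replicates 1 to 3 run from left to right, and bars give the mean and SD of 3 arrays. At TCF4 probe sets 212386_at, 203753_at and 212382_at all CA arrays lie above all DMSO arrays, and CA replicate 3 is the lowest array at each TCF12 probe set.

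TCF3 had 14 probe sets, of which 6 had positive and 8 negative changes, and the groups overlapped at all 14. The brightest, 213811_x_at, had log2 values of 11.02, 11.00 and 11.04 in DMSO and 11.00, 11.02 and 11.11 in CA. Its change was 0.03 (-0.11 to 0.16), so that an increase of more than 1.12-fold lies outside the interval. The largest change of either sign, -0.39 at 213731_s_at, rested on CA replicates 1 and 2, at 5.28 and 4.88, while CA replicate 3 at 5.60 lay among the DMSO values of 5.56 to 5.76. Its interval ran from -0.79 to 0.02 with all arrays, and the change was -0.56 without CA replicate 3. The next in size, 0.16 at 202648_at, had the opposite sign.

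LMO2 was set against the other genes within arrays, as the difference between its brightest probe set and the brightest of each other gene. It was singled out for having the largest change on these arrays, so positive differences were given by that choice and are a description with no test. The log2 change of LMO2 exceeded that of LMO4 by 0.22, that of GATA2 by 0.26 and that of TCF4 by 0.29. It exceeded those of TAL1 and GATA1 by 0.35 and 0.39, those of LYL1 and TCF3 by 0.46 and 0.49, and those of TCF12 and LDB1 by 0.60 and 0.61. In each of the 9 pairs the 3 CA arrays lay apart from the 3 DMSO arrays.

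Of 41046 other probe sets with 1 gene symbol, the 3 genes nearest to LMO2 at 204249_s_at over the 6 arrays, each value taken less its DMSO mean, were TRIM13, RUSC1-AS1 and ADM. TRIM13, a ubiquitin ligase gene, differed from LMO2 by a root mean square of 0.025 log2 units and had a change of 0.50 at 203659_s_at. RUSC1-AS1 differed by 0.037 and ADM, which encodes the peptide adrenomedullin, by 0.038. This is a likeness over 6 arrays in 2 groups and is largely a likeness in the size of the change.

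Close relatives that other tissues use in place of these genes gave no calls. Of LMO1, LMO3, TAL2, LDB2 and GATA3, 0 of 5 passed in limma. Before adjustment 0 had a p under 0.05, where the background over all genes was 5.84% higher and 3.64% lower. All 5 lay below the median of all probe sets. LMO1 and LDB2 had the smallest p of these, with log2 changes of -0.14 and 0.06 and intervals that included 0.

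Proteins that bind the complex were counted over 14 genes, with the brightest probe set of each. Of these 0 passed in limma, where 0.349% of such probe sets over all genes rose and 0.0101% fell. Before adjustment 5 had a p under 0.05 with a negative change and 0 with a positive one, against a background of 3.64% and 5.84%. The 5 were KAT2B, CBFA2T2, SIN3A, RUNX1T1 and RCOR1, while EP300 had an unadjusted limma p of 0.0526. At its second probe set, 202221_s_at, EP300 had a change of -0.34 with an unadjusted limma p of 0.0167 and no overlap. RUNX1T1 had a change of -0.19 at its brightest probe set. Its other probe sets lay below the median of all probe sets, with changes from -0.31 to 0.18. The CA arrays lay below the DMSO arrays at 7 of the 14, against 7.53% over all genes, and above them at 0, against 11.8%. The median log2 change of the 14 was -0.03, and that over all genes was 0.0037.

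KAT2B, an acetyltransferase that modifies TAL1, had log2 values of 6.89, 6.91 and 6.83 in DMSO and 6.60, 6.53 and 6.17 in CA. The groups did not overlap, with CA replicate 3 lowest, and the change was -0.45 (-0.71 to -0.18, adjusted p = 0.311 in limma) with that array and -0.32 without it. CBFA2T2, a corepressor of the ETO family, had 6.48, 6.50 and 6.54 in DMSO and 6.35, 6.13 and 6.25 in CA, a change of -0.27 (adjusted p = 0.342) that was also -0.27 without CA replicate 3. CBFA2T3, the family member best known as a partner of TAL1, had a change of 0.20 with overlapping groups, and 0.29 without CA replicate 3.

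The acetyltransferase EP300 and the corepressors SIN3A and RCOR1 had changes of -0.28, -0.27 and -0.24, and CA replicate 3 was the lowest array for each of them. Without that array their changes were -0.14, -0.18 and -0.15. The count of 14 partners at an unadjusted p under 0.05 was then 2 higher and 5 lower, and it ranged from 3 to 6 lower over the 6 fits that each left out 1 array. The part of that array in these values was not tested further. The probe sets of a gene did not always share a sign: the second brightest SIN3A probe set, 225135_at, had a change of 0.07. The second RCOR1 probe set, 237041_x_at, had a change of -0.03 with overlapping groups. The demethylase KDM1A and the deacetylases HDAC1 and HDAC2 had changes of 0.10, -0.03 and -0.04. SSBP2, SSBP3 and SSBP4, which bind and protect LDB1, had 0.05, 0.02 and 0.0078, each with overlapping groups, and 0.17, 0.08 and -0.01 without CA replicate 3.

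**Figure D4:**
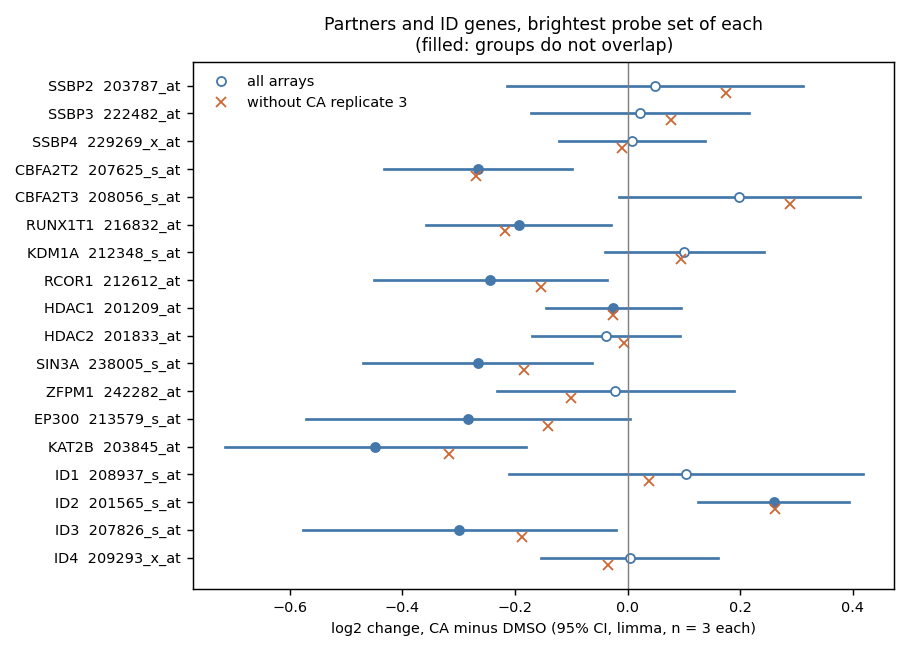
Log2 change (CA minus DMSO, horizontal axis) of the brightest probe set of 14 genes whose proteins bind the complex and of the 4 ID genes. Circles with lines are changes and 95% confidence intervals from limma with all arrays, filled where the groups do not overlap, and crosses are the changes without CA replicate 3. KAT2B lies farthest to the left, at -0.45 with all arrays and -0.32 without CA replicate 3, and no gene shown passed the test.

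ID proteins hold back E proteins by pairing with them without binding DNA. Of the 4 ID genes 0 passed in limma, and ID2 and ID3 had an unadjusted p under 0.05. The background over all genes was 5.84% higher and 3.64% lower. ID2 had log2 values of 10.16, 10.14 and 10.05 in DMSO and 10.40, 10.36 and 10.37 in CA, with no overlap and a change of 0.26 (0.12 to 0.39, adjusted p = 0.236). Its second probe set, 201566_x_at, had a change of 0.24. ID3 had 5.48, 5.21 and 5.29 in DMSO and 5.20, 5.08 and 4.81 in CA, a change of -0.30 (adjusted p = 0.554) that was -0.19 without CA replicate 3, its lowest array.

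Factors and target genes that share sites with the complex were measured too. FLI1 and ERG, which bind with it in blood progenitors, had changes of 0.08 and 0.00070 at their brightest probe sets. All ERG probe sets lay below the median of all probe sets, the brightest with a mean of 4.13. The second FLI1 probe set, 210786_s_at, had a change of 0.15 (0.01 to 0.28, adjusted p = 0.545 in limma) with no overlap. The dimmer FLI1 probe sets had changes from -0.28 to 0.04 with overlapping groups. RUNX1 was not analysed here because its probe sets list several genes. Of 9 measured genes that TAL1 and LMO2 drive in progenitors or T-cell leukaemia, 0 passed in limma. Before adjustment 2 had a p under 0.05, both with a positive change, against 5.84% higher and 3.64% lower over all genes. Without CA replicate 3 there was 1. MYB had log2 values of 12.32, 12.30 and 12.32 in DMSO and 12.64, 12.67 and 12.72 in CA, with no overlap and a change of 0.36 (0.24 to 0.49, adjusted p = 0.0744). CDK6 had a change of 0.13 and HHEX 0.05. The receptor gene KIT, below the median of all probe sets with a mean of 4.19, had 0.23 with overlapping groups. Without CA replicate 3, its highest array, the change of KIT was 0.12.

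Of 12 measured red cell and platelet genes that GATA1 and TAL1 activate, 0 passed in limma. Before adjustment 3 had a p under 0.05, all with a positive change, against 5.84% higher and 3.64% lower over all genes. Without CA replicate 3 there were 2 of each sign. NFE2, which encodes a subunit of a megakaryocyte and red cell factor, had 8.44, 8.33 and 8.47 in DMSO and 8.90, 8.68 and 8.75 in CA, with no overlap and a change of 0.36 (0.18 to 0.54, adjusted p = 0.226). HBB had a change of 0.25 at its brightest probe set, 0.16 without CA replicate 3, and of -0.02, 0.08 and 0.04 at the others. The red cell regulator KLF1 lay below the median of all probe sets, with 3.94 in DMSO and a change of 0.08, or -0.05 without CA replicate 3.

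Of 5 measured mast cell and basophil genes 0 passed in limma. GATA2 itself, which is on that list, was the 1 gene with an unadjusted p under 0.05. Over all genes such a p was found for 5.84% higher and 3.64% lower. CPA3 had a change of -0.25 with overlapping groups. Among 8 early B and T cell genes that E proteins activate 0 passed in limma. RAG1 and EBF1 had an unadjusted p under 0.05, against the same background of 5.84% higher and 3.64% lower. RAG1 and EBF1 had changes of -0.31 and 0.23 at their brightest probe sets, and both lay below the median of all probe sets. The second RAG1 probe set had a change of -0.00077, and the other EBF1 probe sets had changes from -0.07 to 0.21.

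Of 7 plasmacytoid dendritic cell genes 0 passed in limma. NRP1 and IL3RA had an unadjusted p under 0.05, against 5.84% higher and 3.64% lower over all genes. NRP1, a receptor for semaphorins, had log2 values of 5.26, 5.56 and 5.37 in DMSO and 6.12, 6.14 and 5.77 in CA at its brightest probe set. The groups did not overlap, and the change was 0.61 (0.33 to 0.90, adjusted p = 0.182), while its other 3 probe sets had changes of 0.03 to 0.07. IL3RA, a subunit of the interleukin-3 receptor, had 8.31, 8.27 and 8.27 in DMSO and 8.57, 8.56 and 8.48 in CA, a change of 0.25 (0.12 to 0.39, adjusted p = 0.232). CLEC4C and LILRA4, more specific markers of these cells, had changes of -0.14 and -0.04 with overlapping groups, and -0.21 and 0.02 without CA replicate 3.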

How the data were processed

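RNA of 6 MOLM-14 samples was measured on 1 array each. The authors deposited log2 expression values. Per the submitters' processing notes, these came from RMA in the affy package (version not given in the sources used here). RMA sets the arrays to a common distribution, so a shift shared by most transcripts would be lost, and changes of dim probe sets can be compressed. Values were used as deposited. Of 54675 probe sets, 62 controls were left out of the tests.

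Groups came from the titles. The 2 groups were compared by limma 3.58.1 (R 4.3.3), two-sided, with lmFit, eBayes and no block, with Benjamini-Hochberg adjustment over 54613 probe sets and a threshold of 0.05. The fit was tested on simulated data with independent noise. These held no outlying array and no variation shared by replicate number, so the test does not cover such features of the arrays. Other genes were counted at the probe set with the highest mean over 6 arrays. In each list, genes past the threshold, or otherwise up to 2 with the smallest p, were to be named; further genes were chosen after their values were seen. The members and lists were chosen with earlier results of these data known. Some genes of the lists were not analysed here and are not reported. No genome build is named for the values.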

Additional observations from a re-analysis of the deposited data

How the results depend on the processing

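The number of probe sets past the threshold, 120 with all arrays, was 398 without dim probe sets, 47 without probe sets ending in _x_at, _s_at or _a_at, 740 in a robust fit with a signal trend, and 196 with array weights. It was 0 to 6 over the 6 fits that left out 1 array. The number of probe sets of the complex called higher, 1 with all arrays, was 3 in that robust fit, which added 2 of LMO4, and 0 without those endings, a setting that leaves out the called LMO2 probe set. It was 0 in each fit without 1 array, so its range there was 0 to 0. No probe set of the complex was called lower in any setting in limma, with 0 to 3 lower at an unadjusted p under 0.05. The log2 change of LMO2 at 204249_s_at lay between 0.50 and 0.54 in all 12 settings and passed in 5. No called value turned its sign.

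With the replicate number as a block, 1 probe set passed over all and 0 of the complex. Same-numbered arrays deviated together with correlations of 0.08 to 0.26, and 5 of 6 arrays correlated best with their own number. Samples of the same number may therefore share a source of variation, although the labels name no batch. The main fit used no block all the same. With the block, LMO2 at 204249_s_at had an adjusted p of 0.138 in limma, so its call depends on that choice. The number of arrays limits the precision, and with 3 a group small changes cannot be resolved.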
